A study of Mus musculus with 30 samples.

Results

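The 9 genes described here encode neurogranin (Nrgn), calmodulin (Calm2 and Calm3), calmodulin-dependent kinases (Camk2a, Camk2b and Camk4) and calcineurin (Ppp3ca, Ppp3cb and Ppp3r1). They were taken by symbol from a count table of 55335 genes, and all 9 passed the filter on low counts. The members were chosen by name, with measured values in view: Nrgn was already known to be more abundant in Susceptible than in Resilient libraries of the D2 class. The values of that comparison are therefore given below as a description, with no test, and so is every value of Nrgn that rests on D2 Susceptible or D2 Resilient libraries.

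Calmodulin is a small calcium sensor that changes shape when it binds calcium and then binds and switches on other proteins. Among its targets are the CaMK kinases, which add phosphate groups, and calcineurin, a phosphatase that removes them. Neurogranin sits at the postsynaptic side of neurons and binds calmodulin that carries little calcium, so it sets how much calmodulin is free. In medium spiny neurons, the main neurons of the striatum, these proteins take part in the plasticity of synapses, and calcineurin also acts on the phosphoprotein DARPP-32.

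The RNA came from ribosomes that were pulled down through an HA tag (RiboTag, RT) from nucleus accumbens punches of female mice. In D1-Cre-RT mice, Cre follows the D1 dopamine receptor gene, and in A2A-Cre-RT mice it follows the A2A adenosine receptor gene, which marks the D2 class of medium spiny neuron. Libraries of the latter are called D2 here. Some mice served as Control and others underwent CWDS (chronic witness defeat stress), where a mouse watches the defeat of another, and were split by social interaction (SI) into Resilient and Susceptible. All mice carried the RiboTag and a Cre transgene, and the labels give no ages. The 6 groups (D1 Control, D1 Resilient, D1 Susceptible and the same for D2) held 5 libraries each, every one a pool of 4 mice taken 24 h after the SI test. Libraries of a group are described as biological replicates, so the spread between them is one between pools of mice.

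Gene counts per library ran from 28996168 to 65882152, with a median of 53006937.5. The sum of 7 D1 markers was 1786 to 2395 CPM (counts scaled to TMM-adjusted library totals) in D1 Control and 344 to 1236 CPM in D2 Control. The sum of 5 D2 markers was 1331 to 2254 CPM in D1 Control against 7287 to 12534 CPM in D2 Control. Markers of each class were thus also counted in libraries of the other, and which cells this RNA came from was not tested. D2 Susceptible replicates 1 and 2 stood apart from the other 28 libraries: they had the fewest genes with a count (15822 and 16525, against 19440 to 22375), and 6 epidermal markers summed to 344 and 545 CPM, against 27.7 to 56.4 elsewhere. The main results that rest on these libraries are given with and without them. D1 Susceptible replicate 1 also stood apart, with the fewest gene counts and 53.3% of its reads not assigned to a gene (10.1% to 15.7% elsewhere). Its top 10 genes held 68.6% of its gene counts (3.62% to 8.32% elsewhere). TMM scaling raised its CPM 2.94 times, against 0.927 to 1.05 times elsewhere, so its values lean on that scaling.

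The members Calm2 and Calm3 encode the same calmodulin protein from coding sequences that differ. Reads can be told apart between them only where they cover a difference, so the first 150 of 447 coding bases are shown for each, 5′ to 3′, with capitals where they differ. The sequences were read from GRCm38 with GENCODE M21. Coding sequence runs over chr17:87434030-87446795 on the minus strand for Calm2 and chr7:16916951-16923843 on the minus strand for Calm3, with introns in between.
Calm2: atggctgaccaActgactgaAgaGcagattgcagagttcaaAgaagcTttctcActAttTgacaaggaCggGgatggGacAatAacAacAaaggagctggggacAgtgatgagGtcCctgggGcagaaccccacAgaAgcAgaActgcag
Calm3: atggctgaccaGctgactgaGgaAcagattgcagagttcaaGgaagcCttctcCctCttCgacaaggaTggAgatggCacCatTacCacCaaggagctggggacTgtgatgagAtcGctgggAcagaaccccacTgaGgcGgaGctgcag
Of the 447 coding positions, 78 differed between Calm2 and Calm3, and 74 of these were the third base of a codon. Of the 150 positions shown, 23 differed. The sequences shared 82.6% of coding bases and had no identical run longer than 17 bases. Copies of these genes elsewhere in the genome were not examined.

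Nrgn (chromosome 9, 37544492 to 37552904, GRCm38, minus strand) was the member that set the classes apart in unstressed mice. In D1 Control replicates 1 to 5 it stood at 725, 749, 626, 688 and 819 CPM. In D2 Control replicates 1 to 5 it stood at 1174, 1117, 1005, 1475 and 1171 CPM. All 5 D1 libraries lay below all 5 D2 libraries. The means were 721 ± 71.8 and 1188 ± 174 CPM (SD, n = 5), a log2 difference (D1 minus D2) of -0.72 (edgeR, SE 0.122 and adjusted p = 0.000159), or 1.65-fold lower in D1. With each library left out in turn the difference was -0.76 to -0.62 with an edgeR adjusted p of 0.000196 to 0.0016. In bulk RNA of this kind, fewer cells of a type and less RNA per cell cannot be told apart.

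Nrgn was the 1 member of 9 called in this comparison (edgeR adjusted p under 0.05), while 8.3% of all 19368 genes tested were called, 4.8% as lower in D1. All 5 libraries of 1 class lay beyond all 5 of the other for the same 1 of 9, against 11.7% of all genes. The median log2 difference of the members and that of all genes were both 0. Of 8 marker lists for cells other than the D1 and D2 classes alone, 4 did not overlap between these groups. The sum of 6 cortical glutamatergic markers, which belong to cells rich in Nrgn, was 720 to 969 CPM in D1 Control against 345 to 567 CPM in D2 Control, with counts for 6 of 6 markers in both. The sum of 5 markers shared by both classes of medium spiny neuron was 4227 to 4860.5 CPM in D1 Control against 5481 to 6722 CPM in D2 Control. The sum of 7 endothelial and mural markers was 19.4 to 40.1 CPM in D1 Control against 191 to 364 CPM in D2 Control. The sum of 7 interneuron markers was 316 to 460 CPM against 73.8 to 272 CPM. The part of these cells in the Nrgn difference was not tested.

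Under stress, the level of Nrgn in the D1 class was not called as changed. D1 Resilient replicates 1 to 5 held 802, 669, 716, 849 and 971 CPM, and D1 Susceptible replicates 1 to 5 held 612, 687, 697, 935 and 692 CPM. The 3 D1 groups overlapped. The log2 differences were 0.15 (SE 0.121) for Resilient minus Control, 0.01 (SE 0.121) for Susceptible minus Control and -0.15 (SE 0.121) for Susceptible minus Resilient, with an edgeR adjusted p of 1 in each.

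In the D2 class, Nrgn was high in the Susceptible libraries. D2 Resilient replicates 1 to 5 held 999, 899, 944, 1186 and 892 CPM, and D2 Susceptible replicates 1 to 5 held 1709, 1845, 1413, 1582.5 and 1268 CPM. All 5 Susceptible libraries lay above all 5 Resilient ones, while D2 Control, at 1005 to 1475 CPM, overlapped both. The means were 984 ± 121 CPM (Resilient) and 1564 ± 229 CPM (Susceptible) (SD, n = 5), a log2 difference of 0.67, or 1.59-fold. Against Control the log2 difference was 0.40 for Susceptible and -0.27 for Resilient. With D2 Susceptible replicates 1 and 2 left out the differences were 0.53 against Resilient and 0.25 against Control. The 2 left-out libraries were the highest of the 30 for Nrgn, and replicates 3 to 5 alone averaged 1421 CPM. The 5 markers shared by both classes of medium spiny neuron also did not overlap here, at 6542 to 7984 CPM in D2 Susceptible against 5708 to 6348 CPM in D2 Resilient. D2 Resilient replicate 5, the lowest of these for Nrgn, held 1858 CPM of D1 markers and 4867 CPM of D2 markers, against medians of 386 and 10162 CPM in its group. The difference from Resilient was 0.49 without the 2 Susceptible libraries, D2 Resilient replicate 5 and D1 Susceptible replicate 1. The part of these cells in the Nrgn values was not tested. In the comparison of D2 Susceptible with D2 Resilient, 0.0516% of all genes were called, and the groups did not overlap for 1.5% of them, so Nrgn's place there is the reason for the choice of genes and supports nothing further.

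Nrgn's distance between the classes was -0.30 in Resilient and -1.11 in Susceptible libraries on the log2 scale. The first rests on D2 Resilient libraries of lower Nrgn and the second on D2 Susceptible libraries of higher Nrgn. Without D2 Susceptible replicates 1 and 2 the second was -0.95.

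**Figure D1:**
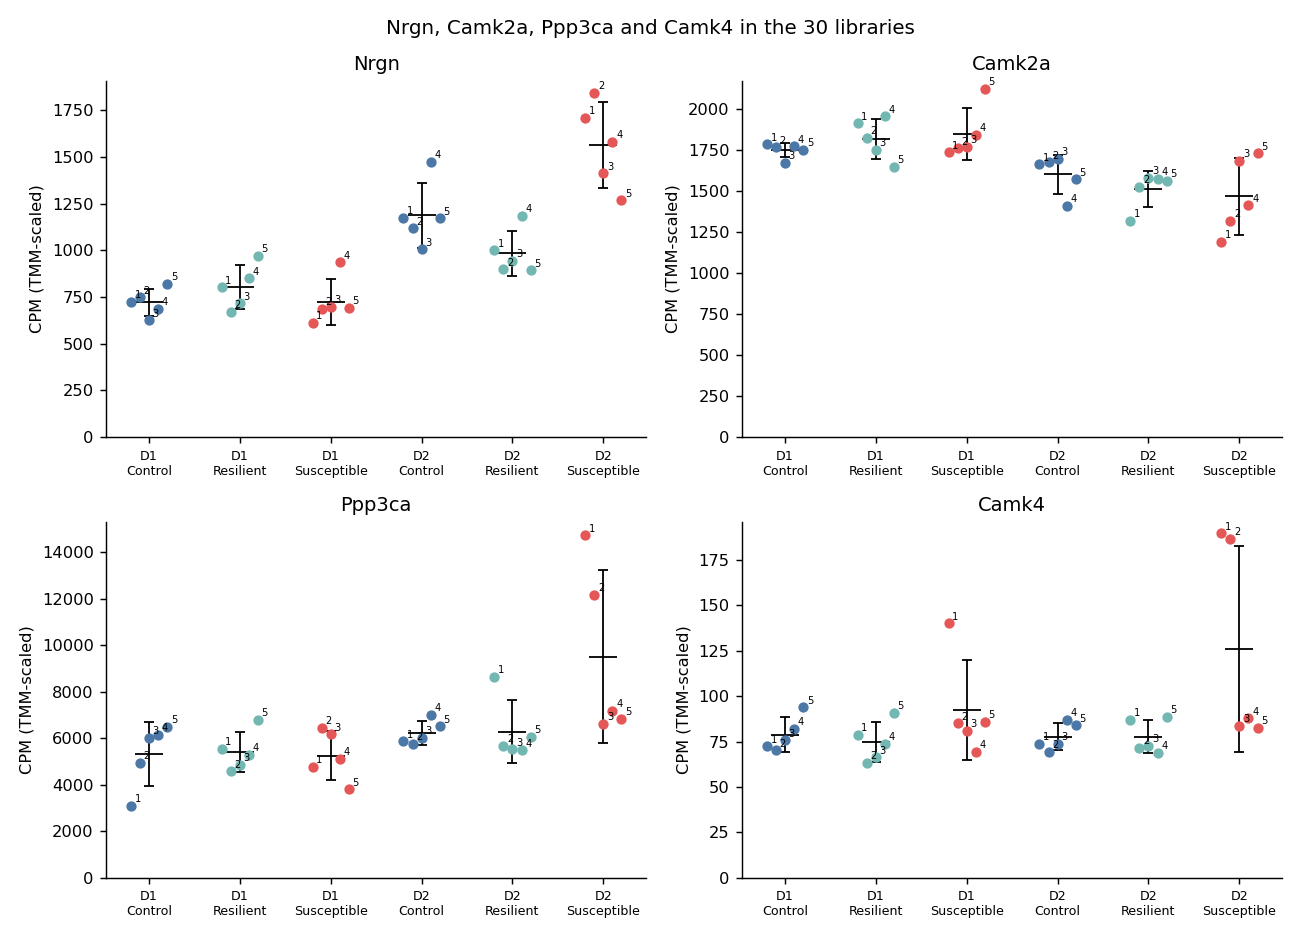
CPM (TMM-scaled, y axis) of Nrgn, Camk2a, Ppp3ca and Camk4 in each of the 30 libraries by group (x axis); points carry the replicate number, and bars show the mean and SD of 5 libraries. Nrgn in D2 Control (1005 to 1475 CPM) lies above D1 Control (626 to 819 CPM), and D2 Susceptible replicates 1 and 2 stand apart for Ppp3ca (14735 and 12182.5 CPM) and Camk4 (190 and 187 CPM).

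The 5 genes whose log2 CPM followed Nrgn most closely over the 30 libraries, among 8866 candidates with a mean of at least 10 CPM, were Syndig1l, Kcnk2, Ccnd2, Pmepa1 and Six3. Pearson's r was 0.95 for Syndig1l, a membrane protein related to an AMPA receptor partner, and 0.94 for Kcnk2, a background potassium channel. It was 0.93 for Ccnd2, a cyclin, for Pmepa1, a membrane protein that dampens TGF-β signalling, and for Six3, a homeobox transcription factor. The 30 libraries fall into 2 classes, which these r values contain. Within the 13 D2 libraries other than Susceptible replicates 1 and 2, r was 0.91, 0.86, 0.88, 0.90 and 0.81 in the same order. These 13 are among the 30 libraries by which the 5 genes were picked, so these r values are no independent check. They also span the D2 Resilient and Susceptible groups whose Nrgn values led to the choice of genes. Kcnk2 is given as an example: its mean was 156 CPM in D1 Control, against 265 CPM for Control, 231 CPM for Resilient and 349 CPM for Susceptible of the D2 class. The Susceptible mean includes replicates 1 and 2, and was not computed without them. None of the other members was among these 5. The r of Nrgn with Ppp3ca was 0.70 over the 30 libraries and 0.53 without D2 Susceptible replicates 1 and 2. With Camk2a it was -0.71 and -0.59. Within a class r was lower in size, at 0.36 (Ppp3ca) and -0.09 (Camk2a) in the 13 D2 libraries and 0.24 and 0.05 in the 15 D1 libraries.

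Calm2 and Calm3 varied less than Nrgn. Per kb of exon, the median over 30 libraries was 2093 CPM for Calm2 and 510 CPM for Calm3. Within a library, the level of Calm2 per exon length was 3.35 to 5.80 times that of Calm3. Mean ratios of Calm2 to Calm3 were 4.50 ± 0.670 in D1 Control and 4.06 ± 0.480 in D2 Control (SD, n = 5). Calm2 was thus the higher in every library, and the ranges of the ratio in the Control groups overlapped.

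Calm2 (chromosome 17, 87433412 to 87446935, minus strand) had 2639 to 3595 CPM in D1 Control against 2763 to 3219.5 CPM in D2 Control. Its log2 difference between the classes in Control was 0.09 (edgeR, SE 0.103 and adjusted p = 0.726). Its stress differences were -0.14 to -0.02 in D1 and -0.14 to 0.04 in D2. Calm3 (chromosome 7, 16915379 to 16924114, minus strand) had 1139 to 1321 CPM in D1 Control against 1090 to 1399 CPM in D2 Control, a log2 difference of -0.06 (edgeR, SE 0.116 and adjusted p = 0.86). The calmodulin members thus overlapped between the classes where Nrgn did not.

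Calm3 was low in the libraries that stood apart. D2 Susceptible replicates 1 to 5 held 765, 871, 1336, 1235 and 1252.5 CPM of Calm3, and the other 28 libraries spanned 1003 to 1448 CPM. Its log2 difference for D2 Susceptible minus Control was -0.20 (edgeR, SE 0.116 and adjusted p = 0.409), and 0.02 without replicates 1 and 2.

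As a description, the level of Nrgn per exon length was set against the summed level of Calm2 and Calm3 in each library. The ratio was 0.185 ± 0.0279 in D1 Control, 0.201 ± 0.0209 in D1 Resilient and 0.200 ± 0.032 in D1 Susceptible (SD, n = 5). In the D2 class it was 0.318 ± 0.0663 in Control, 0.261 ± 0.047 in Resilient and 0.464 ± 0.131 in Susceptible, or 0.374 ± 0.0405 in D2 Susceptible replicates 3 to 5 alone. The lowest D2 Control ratio, 0.261, was above the highest D1 Control ratio, 0.219. Messages per length do not measure the proteins' amounts.

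**Figure D2:**
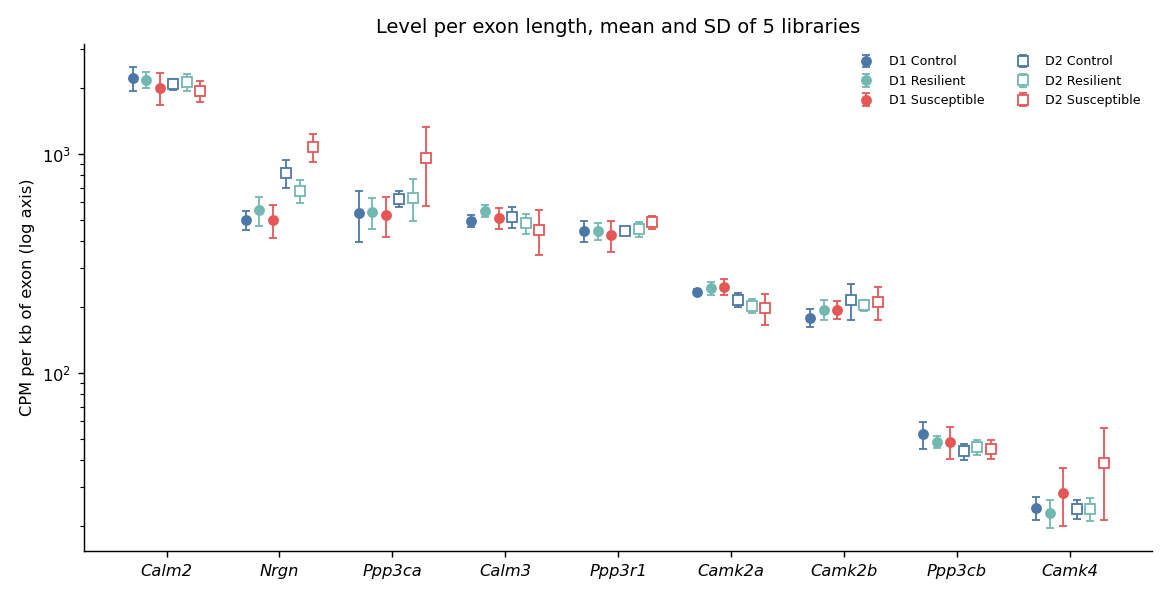
Level per exon length (CPM per kb of exon, log axis) of the 9 members, in order of their median, with a marker for the mean and a bar for the SD of 5 libraries in each of the 6 groups (filled circles D1, open squares D2). Calm2 is highest (median 2093 CPM per kb) and Camk4 lowest (25.0 CPM per kb), and Nrgn is the gene whose D2 Control marker stands clear of D1 Control.

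Over the 30 libraries the order of the median level per kb of exon was Calm2, Nrgn (631 CPM), Ppp3ca (604 CPM), Calm3, Ppp3r1 (458 CPM), Camk2a (226 CPM), Camk2b (201 CPM), Ppp3cb (45.8 CPM) and Camk4 (25.0 CPM). Neighbours from Nrgn to Ppp3r1 overlapped in their ranges, as did Camk2a with Camk2b and Ppp3cb with Camk4. The highest library exceeded the lowest by 4.75-fold for Ppp3ca, 3.01-fold for Nrgn, 2.99-fold for Camk4 and 1.52-fold to 1.89-fold for the other members. The 3 most variable members were thus a calmodulin-binding protein, a phosphatase subunit and a nuclear kinase. The highest values of all 3 came from D2 Susceptible replicates 1 or 2. Over the other 28 libraries the span was 2.79-fold for Ppp3ca, 2.58-fold for Nrgn and 2.21-fold for Camk4, against 1.44-fold to 1.76-fold for the rest.

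Camk2a and Camk2b encode the main subunits of CaMKII, a multimeric kinase of the postsynaptic density that can stay active after calcium falls. Camk2a (chromosome 18, 60925618 to 60988152, plus strand) had 1786, 1766, 1672.5, 1772 and 1752 CPM in D1 Control replicates 1 to 5. It had 1662, 1676, 1696, 1410.0 and 1572 CPM in D2 Control replicates 1 to 5. The top D2 library lay just above the bottom D1 library. The log2 difference was 0.13 (edgeR, SE 0.0879 and adjusted p = 0.49).

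In the stressed groups the classes did not overlap for Camk2a. D1 Resilient replicates 1 to 5 held 1913, 1823.5, 1753, 1956 and 1647 CPM, and D2 Resilient replicates 1 to 5 held 1318, 1527, 1580.0, 1576 and 1563 CPM. The log2 difference was 0.27 (edgeR, SE 0.0879 and adjusted p = 0.0679), which missed the threshold; with DESeq2 it was 0.25 (adjusted p = 0.0435), and with edgeR without D1 Resilient replicate 5 it was 0.32 (adjusted p = 0.035). Nrgn is left aside in this count and in the further ones that use stressed D2 libraries. EdgeR called 0 of the other 8 members in Resilient libraries and 6.65% of all genes, and DESeq2 called 1 of 8 (Camk2a) and 8.23% of all genes. Camk2a was the 1 of 8 without overlap, against 9.7% of all genes, and the 1 of 8 with an unadjusted p under 0.05 by edgeR, against 15.2% of all genes. Cortical glutamatergic markers, from cells rich in Camk2a, summed to 609 to 860 CPM in D1 Resilient against 170 to 505 CPM in D2 Resilient. D2 Resilient replicate 1, the lowest of its group for Camk2a, held the 170 CPM. The part of these cells in the Resilient difference was not tested.

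D1 Susceptible replicates 1 to 5 held 1736, 1762, 1769, 1843 and 2125 CPM of Camk2a. D2 Susceptible replicates 1 to 5 held 1192, 1317, 1684, 1413 and 1732 CPM. The groups lay next to each other without overlap, and the log2 difference was 0.33 (edgeR, SE 0.088 and adjusted p = 0.00699), or 1.26-fold higher in D1. Without D2 Susceptible replicates 1 and 2 it was 0.22 (adjusted p = 0.108 by edgeR), which ended the call. Cortical glutamatergic markers, which belong to cells rich in Camk2a, summed to 503 to 794 CPM in D1 Susceptible against 179 to 372 CPM in D2 Susceptible. Their part in the Camk2a difference was not tested.

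Camk2b (chromosome 11, 5969644 to 6066362, minus strand) leaned the other way. D1 Control replicates 1 to 5 held 1568, 1876, 1481.5, 1649.9 and 1559.7 CPM, and D2 Control replicates 1 to 5 held 2254, 2113, 2208, 1827 and 1359.9 CPM. D2 Control replicates 4 and 5 lay below the highest D1 Control library, and replicate 5 was the lowest of the 30. The log2 difference was -0.26 (edgeR, SE 0.115 and adjusted p = 0.183), and -0.35 (adjusted p = 0.0318 by edgeR) without replicate 5. That library held 1236 CPM of D1 markers (344 to 717 CPM in the other 4 of its group), 7287 CPM of D2 markers (9824 to 12534 CPM) and 272 CPM of interneuron markers (73.8 to 129 CPM). Its cortical glutamatergic markers summed to 567 CPM (345 to 482 CPM in the other 4). The part of all these markers in its Camk2b value was not tested. In stressed libraries the difference was -0.06 (Resilient) and -0.11 (Susceptible, -0.22 without D2 Susceptible replicates 1 and 2), and none of these was called.

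The ratio of Camk2a to Camk2b per exon length put both kinase genes in 1 number for each library. It was 1.32 ± 0.1 in D1 Control, 1.26 ± 0.0763 in D1 Resilient and 1.29 ± 0.202 in D1 Susceptible (SD, n = 5). In the D2 class it was 1.03 ± 0.214 (Control), 0.999 ± 0.056 (Resilient) and 0.937 ± 0.0544 (Susceptible, 0.938 ± 0.0768 in replicates 3 to 5). The 15 D1 libraries lay between 1.11 and 1.62, and 14 of the 15 D2 libraries between 0.860 and 1.08. The exception, D2 Control replicate 5 at 1.41, lay within the D1 range, and is the library of high D1 and low D2 markers described above. D2 Resilient replicate 5 held more D1 markers (1858 CPM) and fewer D2 markers (4867 CPM) than that library, with a ratio of 1.02. The 2 libraries also differed in cortical glutamatergic markers, at 567 CPM in D2 Control replicate 5 and 288 CPM in D2 Resilient replicate 5. The part of these markers in the ratio was not tested. The ratio was computed as a description after the single values were known and was not tested.

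**Figure D3:**
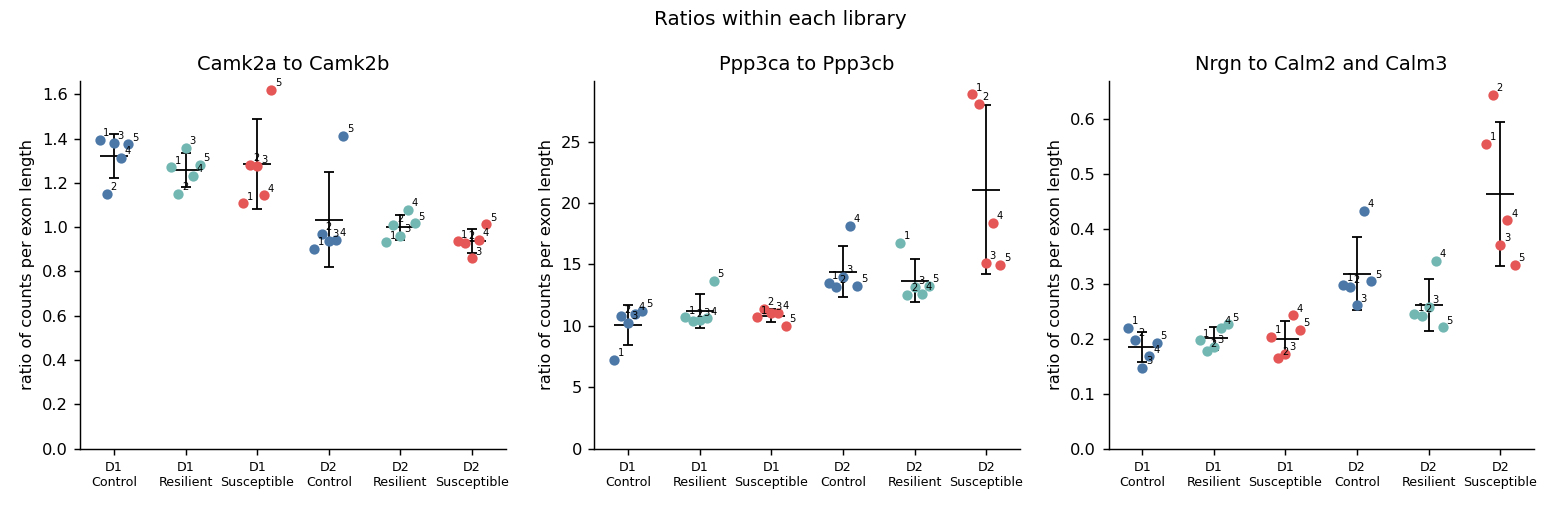
Ratios of levels per exon length within each library (y axes) by group (x axes): Camk2a to Camk2b, Ppp3ca to Ppp3cb, and Nrgn to Calm2 and Calm3 together; points carry the replicate number, and bars show the mean and SD of 5 libraries. The ratio of Camk2a to Camk2b lies between 1.11 and 1.62 in the D1 libraries and between 0.860 and 1.08 in the D2 libraries other than Control replicate 5 (1.41).

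Camk4 (chromosome 18, 32934931 to 33191228, plus strand) encodes a calmodulin-dependent kinase that acts largely in the nucleus, where CREB is among its known targets. It was the lowest of the members. D1 Control replicates 1 to 5 held 72.4, 70.2, 75.7, 81.9 and 93.9 CPM, and D2 Control replicates 1 to 5 held 73.8, 69.5, 73.8, 87.0 and 84.0 CPM. The classes overlapped fully, with a log2 difference of 0.02 (edgeR, SE 0.199 and adjusted p = 0.976).

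In D2 Susceptible replicates 1 to 5 Camk4 stood at 190, 187, 83.5, 87.7 and 82.6 CPM. Replicates 1 and 2 lay above the other 28 libraries (63.4 to 140 CPM), and replicates 3 to 5 lay close to the D2 Control range of 69.5 to 87.0 CPM. The log2 difference from Control was 0.70 (edgeR, SE 0.20 and adjusted p = 0.158), and 0.12 without replicates 1 and 2. It was called without D2 Susceptible replicate 3 (0.81, adjusted p = 0.0368 by edgeR) and without replicate 5 (0.82, adjusted p = 0.0437 by edgeR). The difference from D2 Resilient was 0.70, and 0.12 without replicates 1 and 2. Camk4 overlaps an antisense gene, 2310026I22Rik, and the counting's strand setting is not given, so part of its reads may belong to that gene.

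Ppp3ca (chromosome 3, 136670124 to 136937727, plus strand) and Ppp3cb (chromosome 14, 20499364 to 20546573, minus strand) encode alternative catalytic subunits of calcineurin, and Ppp3r1 (chromosome 11, 17159263 to 17200375, plus strand) its regulatory subunit B. Ppp3ca had 3103, 4945, 6024, 6152 and 6482 CPM in D1 Control replicates 1 to 5. It had 5866, 5771.5, 6033, 7002 and 6522 CPM in D2 Control replicates 1 to 5. The groups overlapped, with a log2 difference of -0.22 (edgeR, SE 0.202 and adjusted p = 0.638), and -0.07 without D1 Control replicate 1. That library held 998 CPM of oligodendrocyte markers (503 to 606 CPM in the others of its group) and 688 CPM of astrocyte markers (323 to 403 CPM). Its D2 markers summed to 2254 CPM (1331 to 1613 CPM). The part of these markers in its Ppp3ca value was not tested.

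In D2 Susceptible replicates 1 to 5 Ppp3ca stood at 14735, 12182.5, 6617, 7178 and 6834 CPM. Replicates 1 and 2 averaged 1.96 times replicates 3 to 5, and the highest of the other 28 libraries was D2 Resilient replicate 1 at 8654 CPM. The log2 difference from D2 Control was 0.61 (edgeR, SE 0.203 and adjusted p = 0.182), and 0.13 without replicates 1 and 2. It was called without D2 Susceptible replicate 3 (0.71, adjusted p = 0.0469 by edgeR). The difference from D2 Resilient was 0.60, and 0.13 without replicates 1 and 2. In these 2 libraries the 6 oligodendrocyte markers summed to 1894 and 1454 CPM, against 817 to 1051 CPM in replicates 3 to 5. The part of the epidermal and oligodendrocyte markers in the Ppp3ca, Camk4 and Calm3 values was not tested.

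D1 Susceptible replicates 1 to 5 held 4763, 6442, 6169, 5109 and 3805 CPM of Ppp3ca, all below the 5 D2 Susceptible libraries. The log2 difference was -0.85 (edgeR, SE 0.204 and adjusted p = 0.0034), or 1.81-fold lower in D1. Without D2 Susceptible replicates 1 and 2 it was -0.36 (adjusted p = 0.232 by edgeR), which ended the call. In Susceptible libraries 2 of the 8 members other than Nrgn were called (Camk2a and Ppp3ca), against 23.9% of all genes, and the groups did not overlap for the same 2, against 8.92% of all genes. Without those replicates 0 of 8 were called. These comparisons use the D2 Susceptible libraries that also enter the comparison with D2 Resilient.

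Ppp3cb overlapped between the classes in Control. It had 378 to 518 CPM in D1 Control against 341 to 434 CPM in D2 Control, a log2 difference of 0.26 (edgeR, SE 0.102 and adjusted p = 0.124). Without D1 Control replicate 1 the difference was 0.33 (adjusted p = 0.0347 by edgeR), so 1 library decided this call. Ppp3cb overlaps the antisense gene 1810062O18Rik. Ppp3r1, which overlaps Wdr92 on the same strand, had 1247 to 1603.5 CPM in D1 Control against 1398.5 to 1482 CPM in D2 Control, a log2 difference of 0.00 (edgeR, SE 0.0944 and adjusted p = 0.995).

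Ppp3ca was the main catalytic message in every library. Its ratio to Ppp3cb per exon length was 10.1 ± 1.63 in D1 Control, 11.2 ± 1.39 in D1 Resilient and 10.8 ± 0.531 in D1 Susceptible (SD, n = 5). It was 14.4 ± 2.09 in D2 Control and 13.7 ± 1.75 in D2 Resilient. In D2 Susceptible replicates 1 to 5 it was 28.8, 28.1, 15.1, 18.4 and 14.97. The D2 Control libraries (13.2 to 18.1) lay above all 5 D1 Control libraries (7.25 to 11.2), a pattern seen after the single values were known and not tested. Log2 CPM of Ppp3ca and Ppp3r1 went together, with r = 0.78 over 15 D1 libraries and 0.80 over the 13 D2 libraries other than Susceptible replicates 1 and 2. High r was not particular to this pair. In the same libraries it was 0.92 and 0.78 for Calm2 with Ppp3r1, and 0.85 and 0.53 for Ppp3cb with Ppp3r1. These r values describe libraries that share their preparation and differ in depth.

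No member passed the test in a stress comparison of the D1 class. Of the 9 members, 0 were called in Susceptible minus Control, Resilient minus Control or Susceptible minus Resilient, and 0 of 9 had an unadjusted p under 0.05 by edgeR or were called by DESeq2 or voom in any of the 3. By edgeR the share of all genes called was also 0%, with 465, 503 and 675 of 19368 genes at an unadjusted p under 0.05. In the same order, DESeq2 called 3, 1 and 8 of all genes, and voom called 0, 180 and 14. By voom 0, 3 and 2 of 9 members had an unadjusted p under 0.05, against 7.66%, 14.6% and 7.98% of all genes. The differences of the members ran from -0.15 to 0.30 on the log2 scale, the highest being Camk4 in Susceptible minus Resilient (SE 0.2). That value contains D1 Susceptible replicate 1, which held 140 CPM of Camk4 against 69.5 to 86.0 CPM in the other 4 libraries of its group, and was 0.11 without it.

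In the D2 class 0 of the 8 members other than Nrgn were called by edgeR in Susceptible minus Control, where 0.00516% of all genes were. Camk4 and Ppp3ca (2 of 8) had an unadjusted p under 0.05, against 15.7% of all genes, and without replicates 1 and 2 this was 0 of 8, against 5.6%. DESeq2 called Camk4 (0.73, adjusted p = 0.0374), 1 of 8, against 1.32% of all genes. In Resilient minus Control 0 of 8 were called, as were 0% of all genes, and the 8 differed by -0.10 to 0.07, with 0 of 8 at an unadjusted p under 0.05 (4.2% of all genes) and 0 called by DESeq2. Susceptible minus Resilient, given as a description, ranged from -0.14 for Calm2 to 0.70 for Camk4. Without Susceptible replicates 1 and 2 it ranged from -0.10 for Ppp3cb to 0.53 for Nrgn. Leaving aside Nrgn, whose values there led to the choice of genes, the groups overlapped for the other 8. They did not overlap for 1.5% of all genes. D2 Susceptible minus Control and D2 Resilient minus Control share the Control libraries, and D2 Susceptible libraries enter both comparisons that name them.

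Whether the change under stress differed between the classes was tested as the D1 change minus the D2 change. None of the 8 members other than Nrgn was called by edgeR for Susceptible minus Control or Resilient minus Control, nor were any of all genes (0%). For Susceptible minus Control the differences were -0.63 (edgeR, SE 0.286 and adjusted p = 0.637) for Ppp3ca and -0.48 (edgeR, SE 0.282 and adjusted p = 0.666) for Camk4. Without D2 Susceptible replicates 1 and 2 they were -0.15 and 0.10. Of the 8, 1 (Ppp3ca) had an unadjusted p under 0.05 there, against 7.79% of all genes, 0 did for Resilient minus Control (4.99%), and DESeq2 called 0 of these 8 in either. For Nrgn the values, given without a test, were -0.39 for Susceptible minus Control, 0.42 for Resilient minus Control and -0.81 for Susceptible minus Resilient. Without those libraries the first was -0.24 and the last -0.67.

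**Figure D4:**
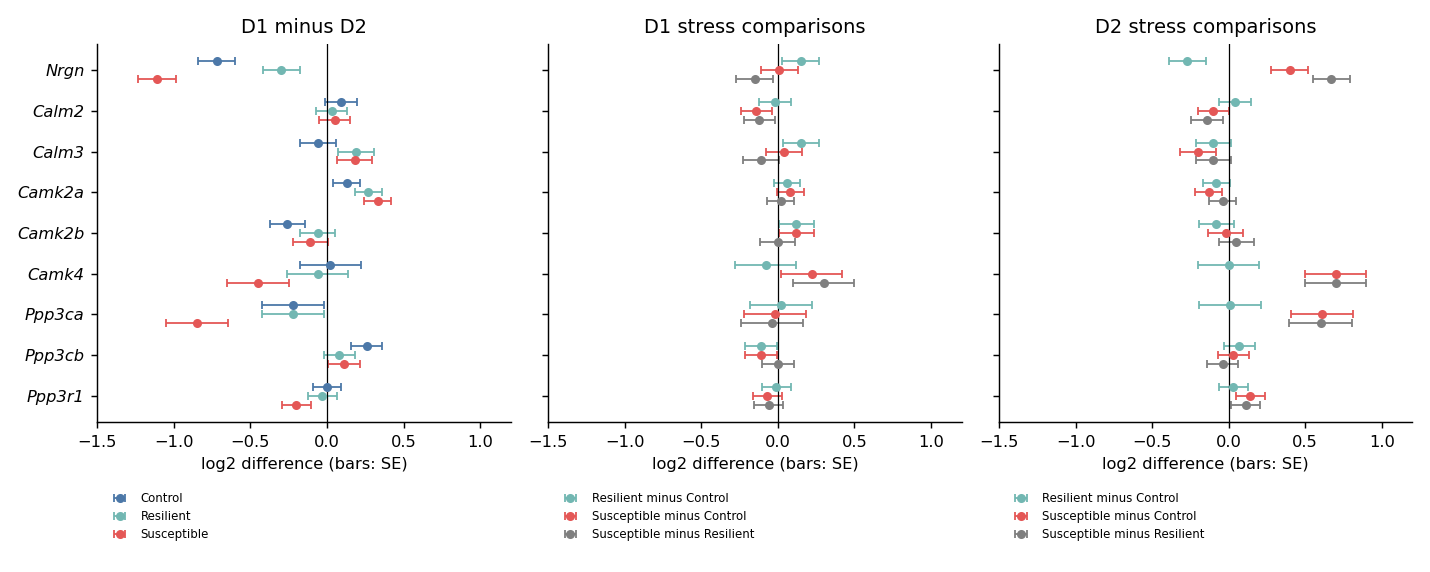
Log2 differences (x axes, bars are SE of the edgeR fit) of the 9 members (y axis) between the classes in each condition and between conditions within each class. Nrgn lies left of 0 in all 3 class comparisons (-0.72, -0.30 and -1.11), D1 stress differences lie between -0.15 and 0.30, and the D2 differences of Camk4 (0.70) and Ppp3ca (0.61 and 0.60) rest on Susceptible replicates 1 and 2.

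Of 45 other genes of calcium and calmodulin signalling, 44 passed the filter, and Ppp3r2, a calcineurin subunit B known from testis, did not, with at most 13 counts in a library. In Control, 10 of 44 were called between the classes, 7 higher (3.51% of all genes) and 3 lower in D1 (4.8%), and their median log2 difference was 0.04 against 0 for all genes. Atp2b4, a plasma membrane calcium pump that calmodulin activates, averaged 271 CPM in D1 against 182 CPM in D2 (0.57, SE 0.106, adjusted p = 0.000459 by edgeR). Pde1a, a calmodulin-activated phosphodiesterase, was 212 and 119 CPM (0.83, SE 0.167, adjusted p = 0.00128 by edgeR). Adcy8, a calmodulin-activated adenylyl cyclase, was 7.64 and 3.26 CPM (1.23, SE 0.251, adjusted p = 0.0014 by edgeR). Camk2g, a further CaMKII subunit, was 121 and 95.1 CPM (0.35, SE 0.0749, adjusted p = 0.00211 by edgeR). The other higher genes were Camk1, Camk2d and Camk2n2. Interneuron and cortical glutamatergic markers were also higher in D1 Control, while endothelial and mural markers were lower, as given above. The part of these cells in the pathway genes called was not tested.

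The genes lower in D1 were of other kinds. Nfatc2, a transcription factor that calcineurin sends to the nucleus, was 13.9 CPM in D1 Control against 21.2 CPM in D2 Control (-0.61, SE 0.124, adjusted p = 0.00136 by edgeR). Pcp4l1, a relative of the small calmodulin-binding protein Pcp4, was 463 and 630.1 CPM (-0.45, SE 0.0934, adjusted p = 0.00181 by edgeR). Nfatc4 was also called, at 0.0347 and 0.677 CPM, levels too near the limit of detection for a fold change to be given. By role, 4 of 12 kinases and their inhibitors and 3 of 13 regulated enzymes, pumps and substrates were called in either direction. So were 2 of 9 transcription factors (Nfatc4 among them), 1 of 3 small calmodulin-binding proteins and 0 of 7 tested calcineurin partners. Of all genes, 8.3% were called in either direction, and lists this short do not set the roles apart.

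In Resilient libraries 8 of 44 of these genes were called between the classes, all higher in D1, and in Susceptible libraries 14 of 44, 11 higher and 3 lower. Of all genes, 2.75% were higher in D1 in Resilient libraries, and 10.5% were higher and 13.4% lower in Susceptible ones. Without D2 Susceptible replicates 1 and 2 the Susceptible count was 11 of 44, 10 higher and 1 lower, against 10.4% of all genes in either direction. Leaving aside D2 Susceptible minus Resilient, edgeR, DESeq2 and voom each called 0 of 44 in the 5 stress comparisons within a class. At an unadjusted p under 0.05 by edgeR there were 1 to 2 of 44 in the D1 comparisons (2.4% to 3.49% of all genes) and 1 in D2 Resilient minus Control (4.2%). In D2 Susceptible minus Control there were 16 of 44, against 15.7% of all genes, and without replicates 1 and 2 there were 5 of 44, against 5.6%.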

How the data were processed

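The deposited values are whole-number counts per gene in 30 libraries, not normalized. HISAT2 and HTSeq, with no version, and the build GRCm38 (mm10) come from the submitters' processing notes, while the annotation release and strand setting are not given. Per the labels' protocols, RNA had an integrity number above 8 and 10 ng entered each SMART-Seq v4 library. The 30 files per library were identical to the deposited table of the whole series. Lines that name no gene, 10.1% to 53.3% of the reads of a library, stayed out of library sizes and tests.

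Symbols and gene coordinates came from GENCODE M21, which named 55154 of 55335 genes. The filter filterByExpr (minimum count 10, minimum total 15) kept 19368 genes and left out 35967. After TMM scaling, edgeR 4.0.16 (R 4.3.3, quasi-likelihood test, robust) fitted 1 model of 6 groups, with Benjamini-Hochberg adjustment over all genes tested and a threshold of 0.05. The biological coefficient of variation was 41.4% (common dispersion 0.172). CPM use TMM-scaled library sizes, and levels per length divide by the union of a gene's exons. The test was tried on simulated data. Pairing by replicate number was checked and is reported with the alternatives.

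The members, the list of 45 other pathway genes and the marker lists were chosen with earlier results of these data known. All members are named. Since Nrgn in D2 Susceptible minus Resilient led to the choice, members called are not counted in that comparison or in its difference between classes, and Nrgn is left out of counts that use stressed D2 libraries. Of the pathway list the text names genes called in a stress comparison and for D1 minus D2 in Control the genes of smallest adjusted p, at most 4 higher and 4 lower. The names Camk1, Camk2d and Camk2n2 were added, and the ratios between members chosen, after their values were seen. The genes most like Nrgn are the 5 with the highest Pearson r of log2 CPM (prior count 1). Alternatives were DESeq2 1.42.0, its size factors, voom with sample weights (limma 3.58.1), no filter, only the groups compared, the replicate block and libraries left out. The D2 marker Gpr52 was not analysed here, and 1 gene of the original pathway list is not reported here. Tables were made with pandas 2.3.3 and figures with matplotlib 3.10.9.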

Additional observations from a re-analysis of the deposited data

Results flagged for a closer look

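A library that lay far from the other 4 of its group, by Dixon's 95% limit of 0.71 for 5 samples, was found in 5 of 54 combinations of a member and a group, where chance gives about 1 in 20. Nrgn was highest in D1 Susceptible replicate 4, at 935 CPM against 612 to 697 CPM in the other 4. Camk2a was highest in D1 Susceptible replicate 5, at 2125 CPM against 1736 to 1843 CPM. Camk2a was lowest in D2 Resilient replicate 1, at 1318 CPM against 1527 to 1580.0 CPM. In that library Ppp3ca was also the highest of its group, at 8654 CPM against 5482.5 to 6068 CPM. Camk4 was highest in D1 Susceptible replicate 1, at 140 CPM against 69.5 to 86.0 CPM, and this library had the fewest gene counts of the 30.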

How the results depend on the processing

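The number of members called in D1 minus D2 was 1 of 9 in Control and, leaving Nrgn aside, 0 of 8 in Resilient and 2 of 8 in Susceptible. The shares of all genes called were 8.3%, 6.65% and 23.9%. In Control the number of members was 3 with voom (28.5% of all genes). It was 1 to 2 with each library left out in turn (981 to 1794 of all genes). In Resilient it was 1 with DESeq2 (8.23% of all genes), with voom (17.6%) and with only the groups compared (2184 genes). It was also 1 with 4 libraries left out (D2 Susceptible 1 and 2, D1 Susceptible 1, D2 Resilient 5), with 2551 genes called. With each library left out it was 0 to 1 (960 to 1453 genes). In Susceptible it was 0 with voom (17%), with only the groups compared (915 genes), and without the 2 (10.4%) or the 4 libraries (2163 genes). With each left out it was 2 to 3 (3508 to 6218 genes). D2 Susceptible minus Control had 0 of 8 called, 1 with DESeq2 (1.32% of all genes) and 0 to 2 with each library left out (0 to 828 genes). The other 6 counts of members kept their value in every alternative.

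A change of sign was counted where the main value exceeded its SE or was called. There were 8 among 2133 values. Calm3 in D1 minus D2 in Susceptible went from 0.18 to -0.04 with voom and -0.02 without the 2 libraries, and in D2 Susceptible minus Control from -0.20 to 0.02 without the 2 or the 4. Camk4 without the 2 libraries went from -0.45 to 0.14 in D1 minus D2 in Susceptible, from -0.48 to 0.10 in the difference of Susceptible minus Control changes and from -0.39 to 0.18 in that of Susceptible minus Resilient changes (0.03 with voom). A further 108 values smaller than their SE changed sign. Camk4 passed the threshold in D1 minus D2 in Susceptible without D1 Susceptible replicate 1 (-0.65) or D2 Susceptible replicate 3 (-0.55), 4 (-0.54) or 5 (-0.56). The causes were not tested.

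Counts over all genes that moved by more than 1.5 times were these. D1 minus D2 in Control had 1608, 2696 with only the groups compared and 5511 with voom. Leaving out 1 library moved it that far in 2 of 10 cases, with the lowest count, 981, without D1 Control replicate 3. Resilient had 1288, 2184 with only the groups, 3412 with voom and 2551 without the 4 libraries. Susceptible had 4621, 915 with only the groups, and 2123 and 2163 without the 2 and the 4. D2 Susceptible minus Control had 1, 255 with DESeq2, 4 with the replicate block, 0 with voom, no filter, only the groups, or without the 2 or the 4, and 0 to 828 with each library left out. D2 Susceptible minus Resilient had 10, 976 with DESeq2, 1 with voom, 0 with only the groups or without the 2 or the 4, and 0 to 1964 with each left out, both highest values without D2 Susceptible replicate 3. The other 7 comparisons had 0, and the highest of their alternatives were 180 in D1 Resilient minus Control and 160 in the difference of Resilient minus Control changes, both with voom, 156 in that of Susceptible minus Resilient changes without D2 Susceptible replicate 3, and 14 or fewer in the other 4.

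Replicate numbers gave no pairing: in 0 of 15 pairs of groups was every correlation over 0.1 (-0.14 to 0.07), and a library correlated best with its own number in 17 of 75 comparisons of a library with another group. The replicate block moved no count of members called, with Nrgn at -0.71 in D1 minus D2 in Control, and gave 1497 genes there.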
